A study of Aspergillus niger with 9 samples.

Results

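The Zn2Cys6 binuclear cluster factors are a fungal family of transcription factors, and 213 of the 11187 genes of Aspergillus niger in the deposited count tables were taken as members. A gene was a member if the authors' annotation gave it an entry as a transcription factor and listed the Pfam domain PF00172. Of 495 genes with such an entry, 214 carried the domain, and 1 of these was set aside together with 4 transcription factor genes that did not carry it. The other 277 transcription factor genes served for comparison.

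In these proteins 6 cysteines hold a pair of zinc ions and form the DNA-binding domain. Many members bind short paired CGG-type sequences as dimers, and many are activated when a particular sugar, amino acid, fatty acid or nitrogen source enters the cell. In filamentous fungi the family regulates the breakdown of plant polysaccharides, amino acids, purines and quinate. Other members act in sterol supply, drug resistance, sexual development and the synthesis of secondary metabolites.

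A symbol used here is that of the closest SwissProt protein in the authors' annotation, often from another fungus, so each gene is described as closest to that protein and not as its ortholog. A match was given for 172 members, and for 64 of these it was to an uncharacterized, putative or probable protein. The matches gave 62 different symbols, and 142 members shared theirs with another member. The most repeated were the fission yeast protein SPAC139.03 with 17 members, the yeast sterol regulator UPC2 with 15, SPBC530.05 with 11 and moc3 with 10. Whether reads were shared between such copies was not tested. Beside PF00172, 106 members carried the fungal transcription factor domain PF04082, 42 carried PF11951 and 65 carried neither. The annotation placed 30 members in 25 secondary metabolite gene clusters.

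Poly(A) RNA was measured in vegetative mycelium from liquid shaken cultures of the strain MA234.1, for which the labels give no genotype, and of deletions of aslA or aslB made in the MA234.1 background. The series concerns transcription factors under the control of FlbA, which restrains G protein signals. Each strain had 3 libraries, described as biological triplicates of cultures. The protocol names a 16 h culture in a rich medium with 25 mM glucose and a 4 h culture with 25 mM xylose, and which of these a library came from is not stated.

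Between 11321882 and 19110786 reads were counted per library, and levels are given as CPM, a count scaled to the depth of its library. At these depths 3 reads equal 0.158 to 0.275 CPM. The annotation pairs no gene ID with aslA or aslB, so the loss of these transcripts could not be verified. Replicate spread, as the median SD of log2 CPM of members, was 0.15 for MA234.1 libraries, 0.26 for those of ΔaslA and 0.61 for those of ΔaslB. The libraries labelled ΔaslB lay far apart, replicate 2 close to MA234.1 and replicate 3 close to ΔaslA. Results that rest on ΔaslB are therefore given per library.

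The family as a whole took a smaller share of the RNA in ΔaslA. The 213 members summed to 8277, 8328 and 8347 CPM in MA234.1 and to 4642, 4747 and 4765 CPM in ΔaslA. The means were 8317 ± 36.05 and 4718 ± 66.7 CPM (SD, n = 3), and the groups did not overlap. The 277 other transcription factor genes summed to 21557 ± 42.1 CPM in MA234.1 and 20010 ± 1031 CPM in ΔaslA. The sum of the family was spread over many genes, with the 5 highest members holding 19.7% to 20.3% of it in MA234.1 and 19.6% to 21.0% in ΔaslA. Between 19 and 21 members reached 100 CPM in an MA234.1 library and between 6 and 10 in a ΔaslA library. In bulk RNA, fewer cells of a type and less RNA per cell cannot be told apart.

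**Figure D1:**
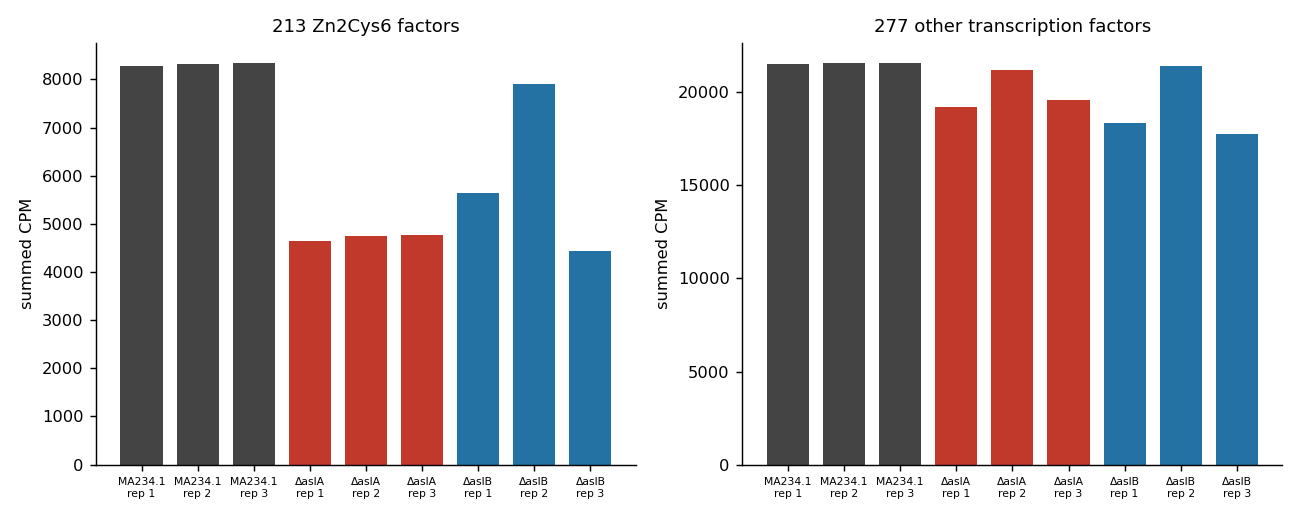
Summed CPM of the 213 Zn2Cys6 factors (left) and of the 277 other transcription factor genes (right) in each library, with 1 bar per library coloured by strain and both vertical axes starting at 0. The 3 ΔaslA bars on the left lie between 4642 and 4765 CPM, while the ΔaslB bars stand at 5644, 7904 and 4443 CPM.

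Per gene, 200 members had enough counts to be tested, and the 13 others did not exceed 3.24 CPM in any library. In ΔaslA against MA234.1, edgeR called 102 members lower and 26 higher at a Benjamini-Hochberg adjusted p under 0.05, while 72 were not called. The called share was 64.0% of the members tested against 68.5% of all genes tested, so the family was not called more often than other genes. Its calls lay in 1 direction more than those of all genes. Of the members tested 51.0% were called lower and 13.0% higher, against 34.5% and 34.0% of all genes. The median log2 fold change (log2FC) was -0.58 over the members, -0.33 over the other transcription factor genes and 0.00 over all genes. In the other transcription factor genes, 115 of 266 tested were called lower and 45 higher. A fall of at least 4-fold was called in 34 members and a rise of that size in 0 members, against 14.4% and 8.18% of all genes. Replicates of the compared strains did not overlap for 114 members that were lower and 30 that were higher, against 37.9% and 36.8% of all genes, or 74.7% in both directions. All 128 called members were among these.

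These counts depended on how the spread was estimated. A single fit of all 9 libraries, in which the distances between ΔaslB libraries entered the error, called 72 members lower and 11 higher, where it called 25.0% and 23.6% of all genes, 48.7% in total. It called 83 of the 128 members. Leaving out 1 library at a time gave 88 to 110 members lower and 19 to 30 higher, and 29 of the 128 calls were lost without some one library. The authors' deposited table, which also asks for a 4-fold change and a minimum level, called 24 members lower and 0 higher in ΔaslA, against 7.78% and 5.67% of all genes in that table, and edgeR called all 24.

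**Figure D2:**
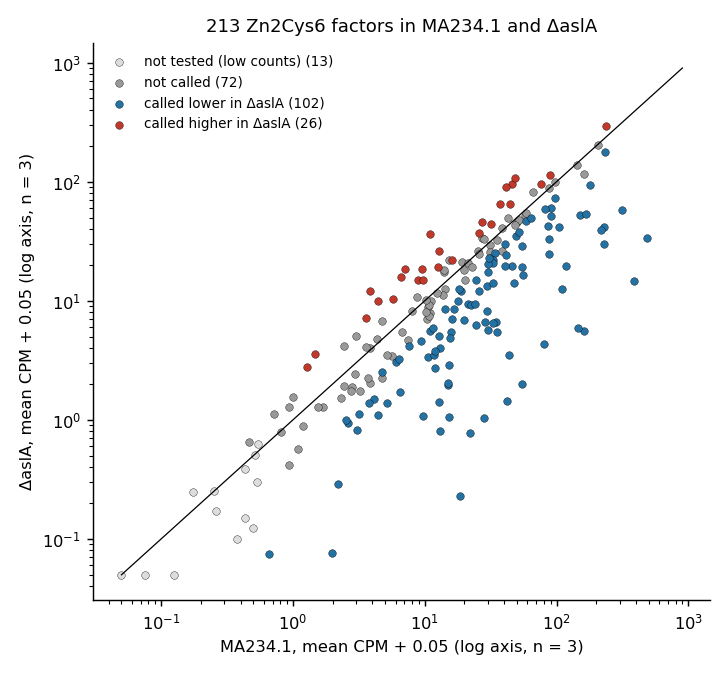
Mean CPM of each of the 213 members in MA234.1 (horizontal) and in ΔaslA (vertical), each plus 0.05, on log axes with n = 3 per strain and the line of equality drawn. The 102 members called lower lie below the line and reach far from it, while the 26 called higher stay near it.

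The 10 largest falls each took a gene that averaged over 10 CPM in MA234.1 to below 20 CPM in ΔaslA, with changes of 17.1- to 102-fold in the mean. The steepest belonged to ATCC64974_83980, closest to the uncharacterized fission yeast protein SPCC965.10 and placed by the authors' annotation on contig 14 from 464948 to 466859, minus strand. The genome build of these coordinates is not given in the sources used here. This gene stood at 18.1, 19.2 and 17.9 CPM in MA234.1 and at 0.074, 0.158 and 0.311 CPM in ΔaslA, at or near the level that 3 reads stand for (log2FC -6.63 ± 0.33 SE, adjusted p = 5.97e-07). In the ΔaslB libraries it stood at 0.216, 15.6 and 0.0831 CPM. Replicate 2 of ΔaslB was thus near the MA234.1 level, and the others were at the ΔaslA level.

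ATCC64974_88640, closest to yeast ARO80, which activates the breakdown of aromatic amino acids, lies on contig 16 from 581148 to 583740. It stood at 391, 377 and 387 CPM in MA234.1, at 13.6, 13.2 and 16.9 CPM in ΔaslA, with 6.05, 283 and 18.6 CPM in ΔaslB. Its mean was 26.4 times higher in MA234.1 than in ΔaslA (log2FC -4.73 ± 0.12 SE, adjusted p = 2.47e-08). A family member with no SwissProt match, ATCC64974_4610 on contig 1 from 1400149 to 1402191, fell as far. It stood at 167, 155 and 162 CPM in MA234.1 and at 6.21, 5.01 and 5.44 CPM in ΔaslA (log2FC -4.86 ± 0.13 SE, adjusted p = 2.11e-08). Both genes were separated widely from the spread of their replicates.

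ATCC64974_92740, also without a match, is annotated in secondary metabolite cluster 67. It stood at 149, 156 and 134 CPM in MA234.1 and at 3.99, 7.48 and 6.06 CPM in ΔaslA (log2FC -4.63 ± 0.21 SE, adjusted p = 4.08e-07). ATCC64974_44140 carries the Zn2Cys6 domain, although its closest match is zebrafish egr1, a zinc finger protein of another class. It stood at 26.1, 28.4 and 30.3 CPM in MA234.1 and at 0.814, 1.32 and 0.855 CPM in ΔaslA (log2FC -4.78 ± 0.23 SE). The remaining genes among the 10 largest falls were closest to UPC2 (ATCC64974_48630), SPBC530.05 (ATCC64974_22040), YJL206C (ATCC64974_10700) and, in a pair, adv-1 (ATCC64974_82110 and ATCC64974_50020). Their log2 fold changes ran from -4.95 to -4.14.

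A pair of weakly expressed members had falls of this size as well, although neither averaged 5 CPM in MA234.1. ATCC64974_75530 in cluster 47, closest to YJL206C, had a mean of 1.94 CPM in MA234.1 and 0.0259 CPM in ΔaslA (log2FC -5.97). ATCC64974_2390, closest to the purine regulator uaY, had means of 0.610 and 0.0247 CPM (log2FC -4.31 ± 1.11 SE). Both were called, with adjusted p = 0.000329 and 0.00827.

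**Figure D3:**
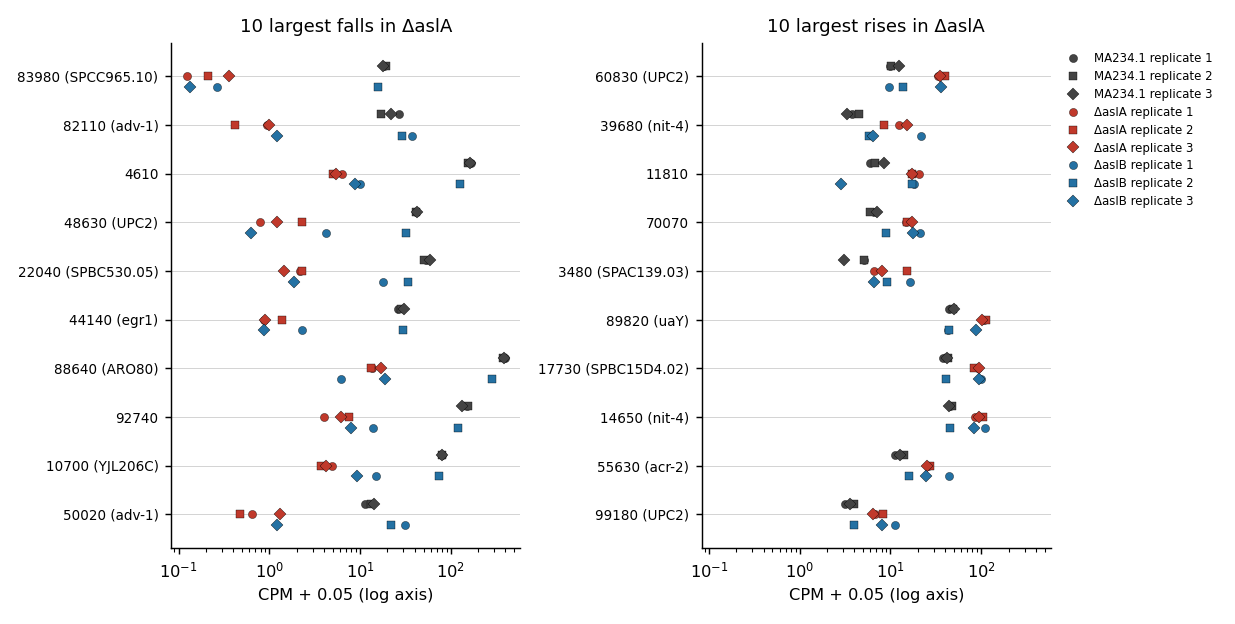
CPM plus 0.05 on a log axis in each of the 9 libraries for the 10 members with the largest falls (left) and the 10 with the largest rises (right) in ΔaslA, labelled by gene number and closest protein, with colour for the strain and marker shape for the replicate. MA234.1 and ΔaslA form separate groups in every row, as the choice of genes required, and the square of ΔaslB replicate 2 lies near MA234.1 in most rows.

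Rises were smaller than falls, and the largest was 3- to 4-fold. ATCC64974_60830, closest to yeast UPC2, a regulator of sterol synthesis and uptake, stood at 9.91, 9.999 and 12.5 CPM in MA234.1 and at 33.4, 39.8 and 35.5 CPM in ΔaslA (log2FC 1.74 ± 0.16 SE, adjusted p = 2.12e-05). Its ΔaslB libraries stood at 9.66, 13.5 and 36.1 CPM, so replicate 3 alone was at the ΔaslA level. ATCC64974_39680, closest to Neurospora nit-4, an activator of nitrate assimilation, stood at 3.67, 4.402 and 3.22 CPM in MA234.1 and at 12.4, 8.48 and 15.1 CPM in ΔaslA (log2FC 1.66 ± 0.27 SE). A higher-expressed nit-4-like gene, ATCC64974_14650, rose from 45.1, 48.1 and 43.8 CPM to 85.6, 105 and 95.2 CPM. The groups did not overlap for any of these genes, which was a condition for entering the 10 largest rises.

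ATCC64974_89820, closest to Aspergillus nidulans uaY, the activator of purine use, is annotated in secondary metabolite cluster 62. It stood at 44.3, 49.2 and 50.2 CPM in MA234.1, at 106, 113 and 101 CPM in ΔaslA, with 42.7, 44.2 and 86.8 CPM in ΔaslB (log2FC of ΔaslA 1.16 ± 0.10 SE, adjusted p = 1.65e-05). The other rises among the largest 10 were those of ATCC64974_11810 and ATCC64974_70070, which have no match, ATCC64974_17730 (SPBC15D4.02), ATCC64974_55630 (acr-2), ATCC64974_99180 (UPC2) and ATCC64974_3480 (SPAC139.03). Their log2 fold changes ran from 1.00 to 1.39. The call for ATCC64974_3480 was lost without MA234.1 replicate 3.

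Among regulators of carbon use, the genes closest to activators of acetate metabolism fell most. Neurospora acu-15 switches on the enzymes of acetate use and the glyoxylate cycle, and 2 members matched it, both called lower. ATCC64974_101280 stood at 225, 224 and 233 CPM in MA234.1, at 46.2, 36.8 and 41.0 CPM in ΔaslA, with 87.1, 202 and 36.2 CPM in ΔaslB (log2FC of ΔaslA -2.46 ± 0.11 SE, adjusted p = 3.29e-07). ATCC64974_58970 was low throughout, at 2.66, 2.16 and 1.61 CPM in MA234.1 and at 0.296, 0.105 and 0.311 CPM in ΔaslA. All 3 of its ΔaslB libraries, at 0.505, 0.606 and 0.665 CPM, lay below MA234.1, replicate 2 included.

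Of the genes for enzymes of acetate use and gluconeogenesis, 4 of 4 were called lower in ΔaslA, against 34.5% of all genes. Whether the acu-15-like genes act on them was not tested. Acetyl-CoA synthetase (facA), which activates acetate, stood at 4463, 4481 and 4374 CPM in MA234.1 and at 215, 154 and 208 CPM in ΔaslA. Of the aldehyde dehydrogenase genes matched to aldA, an enzyme of ethanol oxidation, 2 were tested and both were called lower.

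Of 8 members on the list of sugar regulators, 4 were called lower, 1 higher and 3 not, with a median log2 fold change of -0.85. ATCC64974_107510, closest to the yeast maltose regulator MAL13, fell from 109, 101 and 105 CPM to 39.5, 46.5 and 39.0 CPM. ATCC64974_85550, matched to the arabinose regulator araR of A. niger itself, stood at 81.5, 92.3 and 96.1 CPM in MA234.1 and at 52.3, 44.6 and 57.1 CPM in ΔaslA (log2FC -0.81 ± 0.13 SE, adjusted p = 0.000525). In ΔaslB it stood at 162, 97.2 and 61.0 CPM, with replicate 1 above every other library. A second gene described as araR, ATCC64974_54630, was not called, with means of 51.6 and 48.0 CPM in MA234.1 and ΔaslA. The 3 genes closest to GAL4, the yeast activator of galactose use, split into 2 called lower and 1 called higher. The rise, in ATCC64974_94350, was small (log2FC 0.33 ± 0.09 SE) and its call was lost without MA234.1 replicate 2. The list did not take in ATCC64974_90260, closest to the yeast maltose regulator YPR196W, or ATCC64974_15650, closest to SUC1, a probable regulator of sucrose use. Both were called lower (log2FC -1.97 ± 0.16 and -2.13 ± 0.33 SE).

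The 3 members closest to the yeast oleate regulators OAF1 and OAF3 were weakly expressed, and 2 of them were called lower. ATCC64974_92820, the OAF1-like gene, stood at 3.58, 4.03 and 3.53 CPM in MA234.1 and at 1.18, 1.74 and 1.09 CPM in ΔaslA.

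Of 2 members closest to quinate activators, 1 was called lower. ATCC64974_103320, closest to A. nidulans qutA, stood at 57.2, 52.7 and 56.9 CPM in MA234.1, at 17.0, 14.8 and 17.6 CPM in ΔaslA, with 34.4, 49.6 and 14.6 CPM in ΔaslB (log2FC of ΔaslA -1.75 ± 0.13 SE, adjusted p = 5.26e-06). ATCC64974_85190, closest to Neurospora qa-1f, was not called, at 0.367, 1.42 and 0.845 CPM in MA234.1 and at 0.962, 1.79 and 0.933 CPM in ΔaslA (log2FC 0.48 ± 0.57 SE). Of 15 genes matched to quinate enzymes or permeases, 12 were tested, 8 were called lower and 2 higher. The shares over all genes were 34.5% and 34.0%. Most of the 15 were matched to the permease qutD, as were most of those called lower. The steepest of these, ATCC64974_110460, matched to the quinate permease qutD, stood at 608, 549 and 545 CPM in MA234.1 and below 1 CPM in each ΔaslA library. The qutD-like ATCC64974_103340, numbered close to the qutA-like gene, was not called (log2FC -0.27 ± 0.19 SE). Among enzyme genes, the one matched to qutG was called lower, from a mean of 358 ± 23.3 to 136 ± 42.5 CPM (SD, n = 3). The quinate dehydrogenase gene matched to qutB rose instead, from a mean of 7.57 ± 0.938 to 17.6 ± 4.64 CPM (SD, n = 3). The gene matched to qutE, ATCC64974_103330, had too few counts to be tested.

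Regulators of nitrogen and amino acid use moved in both directions. Of 29 members on this list, 27 were tested, 15 were called lower (55.6%), 5 higher (18.5%) and 7 not, with a median log2 fold change of -0.79. These shares were near those of all members tested, 51.0% and 13.0%, against 34.5% and 34.0% of all genes. The 3 genes closest to ARO80 are not on this list, and 2 of them were called lower. All 3 genes closest to PUT3, the yeast activator of proline use, were called lower. The PUT3-like gene with the most reads, ATCC64974_97060, stood at 168, 179 and 193 CPM in MA234.1 and at 96.5, 81.0 and 104 CPM in ΔaslA. Of 6 other genes of proline use tested, 2 were called lower and 2 higher. ATCC64974_46760, closest to UGA3, the yeast activator of GABA use, had the largest fall on the list among genes above 5 CPM. It stood at 44.7, 43.6 and 42.9 CPM in MA234.1 and at 3.85, 2.74 and 3.81 CPM in ΔaslA (log2FC -3.67 ± 0.18 SE, adjusted p = 5.30e-07).

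ATCC64974_29150, closest to LYS14, the yeast regulator of lysine synthesis, fell from 12.0, 15.6 and 18.3 CPM to 2.74, 2.74 and 3.03 CPM. Of 2 genes closest to amdR, an Aspergillus regulator of acetamide and omega amino acid use, ATCC64974_21010 was called lower (log2FC -1.75 ± 0.27 SE) and ATCC64974_15520 was not (0.06 ± 0.35 SE). Of 8 acetamidase genes matched to amdS, 6 were called lower and 0 higher, against 34.5% and 34.0% of all genes. Both genes closest to prtT, the Aspergillus activator of secreted proteases, were called lower. ATCC64974_55510 stood at 21.7, 30.6 and 25.3 CPM in MA234.1 and at 15.01, 8.22 and 13.1 CPM in ΔaslA. ATCC64974_95150 changed less, from 69.8, 88.0 and 87.7 CPM to 60.7, 53.2 and 62.3 CPM.

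The genes closest to nitrate regulators were divided. Of 6 nit-4-like genes tested, 2 were called higher and 3 lower, and of 4 genes closest to A. nidulans nirA, 2 were called higher and 1 lower. The structural genes of nitrate assimilation that passed the test were higher. Nitrite reductase (niiA) rose from 8.07, 8.51 and 9.29 CPM to 55.7, 61.0 and 62.3 CPM, and nitrate reductase (niaD) was also called higher. The nitrate transporter gene crnA was not called, at a mean of 2.33 CPM in MA234.1 and 3.86 CPM in ΔaslA. Which of the nit-4- and nirA-like genes is the nitrate activator of this fungus is not given in the annotation.

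The uaY-like genes differed among themselves too. Of 5, 4 were tested, and besides the rise of ATCC64974_89820, ATCC64974_16890 and ATCC64974_2390 were called lower and ATCC64974_12300 was not called. ATCC64974_12300 stood at 28.3, 34.0 and 32.0 CPM in MA234.1 and at 28.0, 29.3 and 30.2 CPM in ΔaslA. All 5 genes matched to purine permease, xanthine dehydrogenase or uricase were called lower, against 34.5% of all genes. The 2 genes closest to LEU3, the yeast regulator of leucine synthesis, were not called. The LEU3-like ATCC64974_48870 had 42.3, 43.8 and 41.1 CPM in MA234.1, 54.0, 41.6 and 53.9 CPM in ΔaslA, and 95.4 CPM in ΔaslB replicate 1. Of 2 genes of leucine synthesis tested, 1 was called lower and 1 higher.

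**Figure D4:**
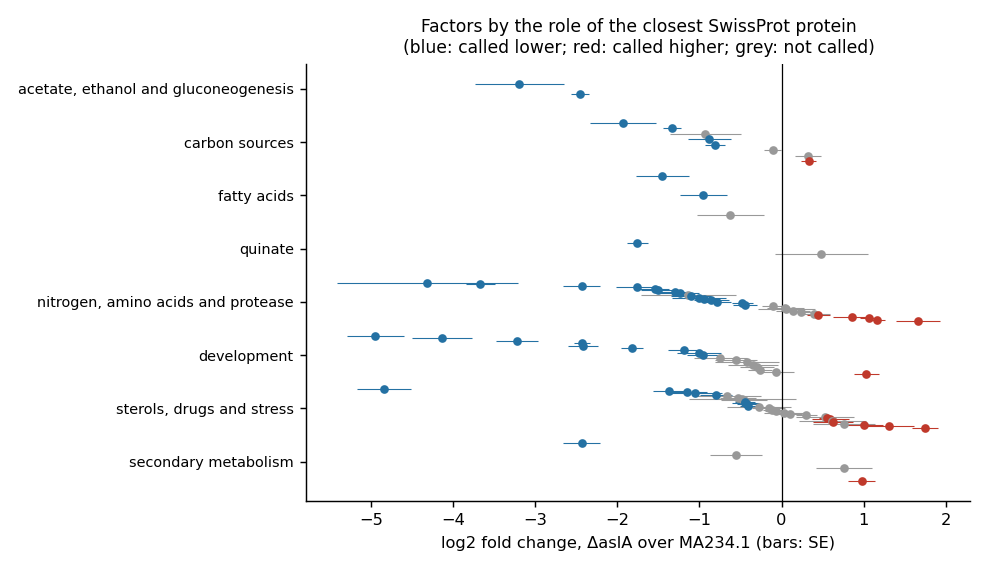
Log2 fold change of ΔaslA over MA234.1 for each tested member with a named role, grouped by the role of its closest SwissProt protein, with bars of 1 SE. Blue points were called lower, red points higher and grey points not called. The acetate list lies wholly below 0, while the nitrogen and sterol lists reach both sides. The LYS14-like gene stands on both the nitrogen and the secondary metabolism list.

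Members closest to regulators of development included some of the steepest falls. Of 17 on this list, all tested, 9 were called lower (52.9%), 1 higher (5.88%) and 7 not, with a median log2 fold change of -0.95. The lower share was near that of all members tested (51.0%), against 34.5% of all genes. The list also took in the 2 members closest to acr-2, annotated as an acriflavine sensitivity control protein. Neurospora adv-1, known as pro1 in related fungi, is needed for sexual development and hyphal fusion, and all 4 genes closest to it were called lower. ATCC64974_82110, on contig 13 from 2749544 to 2751781, stood at 26.5, 17.0 and 22.04 CPM in MA234.1 and at 0.888, 0.369 and 0.933 CPM in ΔaslA (log2FC -4.95 ± 0.35 SE, adjusted p = 4.36e-06). ATCC64974_50020 stood at 11.4, 13.1 and 14.2 CPM in MA234.1 and at 0.592, 0.422 and 1.24 CPM in ΔaslA.

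In ΔaslB replicate 1 these 2 genes stood beyond the MA234.1 mean, as 8 of the 85 called members with at least a 2-fold difference did, against 252 of 4302 genes. ATCC64974_82110 stood at 37.6, 29.2 and 1.16 CPM in ΔaslB, and ATCC64974_50020 at 31.4, 21.6 and 1.16 CPM. Replicates 1 and 2 were thus above all MA234.1 libraries for both genes, and replicate 3 was near ΔaslA. The others on the adv-1 list behaved differently. ATCC64974_85150 stood at 4.32, 7.88 and 0.416 CPM in ΔaslB, between or below both strains, where MA234.1 had 8.72, 9.63 and 10.7 CPM. ATCC64974_111140 was lower in every ΔaslB library, at 8.001, 8.19 and 4.32 CPM, than in MA234.1, at 16.1, 14.3 and 19.0 CPM.

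Fission yeast moc3 acts in sexual development and stress responses, and 10 members were closest to it. Of these 4 were called lower and 0 higher, and all 10 had a log2 fold change below 0. ATCC64974_70510, the one with the most reads, stood at 325, 312 and 300 CPM in MA234.1, at 59.3, 52.7 and 61.6 CPM in ΔaslA, with 133, 281 and 63.0 CPM in ΔaslB (log2FC of ΔaslA -2.43 ± 0.10 SE, adjusted p = 1.95e-07). The 1 rise on the list, in ATCC64974_55630, belongs to a gene closest to Neurospora acr-2, named for sensitivity to acriflavine. It stood at 11.2, 14.2 and 12.8 CPM in MA234.1 and at 26.0, 27.1 and 25.3 CPM in ΔaslA.

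Of 13 genes that mark conidia, the asexual spores, 10 were tested, 5 were called lower and 1 higher in ΔaslA. Most were low, although the brlA-like ATCC64974_72370 stood at 36.9, 41.0 and 39.2 CPM in MA234.1 and 17.9, 11.7 and 18.7 CPM in ΔaslA. The regulator wetA averaged 22.8 and 24.7 CPM in these strains and was not called. The regulator abaA was the one called higher, from a mean of 1.43 ± 0.595 to 19.0 ± 2.44 CPM (SD, n = 3, log2FC 3.70 ± 0.30 SE). The summed level of the 13 genes was 110 to 119 CPM in MA234.1, 84.3 to 86.2 CPM in ΔaslA and 65.0 to 103 CPM in ΔaslB. The genes of the spore wall hydrophobin dewA were at or near 0 in every library. Their part in the results on development was not tested.

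The list of regulators of sterols, drug resistance and stress was divided. Of 29 members, all tested, 9 were called lower (31.0%), 6 higher (20.7%) and 14 not, with a median log2 fold change of -0.16. Of all genes 34.5% were called lower and 34.0% higher, and of all members tested 51.0% and 13.0%. The 15 UPC2-like genes ranged from a log2 fold change of -4.84 in ATCC64974_48630 to 1.74 in ATCC64974_60830, with 6 called lower and 4 higher. ATCC64974_48630 stood at 41.0, 41.8 and 42.5 CPM in MA234.1, at 0.740, 2.27 and 1.17 CPM in ΔaslA, with 4.11, 31.7 and 0.582 CPM in ΔaslB. The UPC2-like gene with the most reads, ATCC64974_54750, changed little, from 94.3, 94.8 and 102 CPM to 69.0, 77.6 and 72.5 CPM (log2FC -0.41 ± 0.10 SE, adjusted p = 0.00496).

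Of 6 genes closest to the yeast stress regulator ASG1, 3 were called lower and 1 higher. None of the 3 genes closest to WAR1, a regulator of weak acid resistance in yeasts, was called. One of them, ATCC64974_39890, shows how far 1 library can weigh. It stood at 95.8, 94.3 and 101 CPM in MA234.1 and at 73.6, 147 and 77.1 CPM in ΔaslA, where replicate 2 stood apart. Its log2 fold change was 0.03 ± 0.25 SE with that library and -0.37 without it. Across the family, ΔaslA replicate 2 was the lowest of all 9 libraries for 51 of the 200 members tested (25.5%, against 17.4% of all genes) and the highest for 18 (9.0%, against 20.4%).

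Of 30 members in secondary metabolite clusters, 23 were tested, 13 were called lower (56.5%), 3 higher (13.0%) and 7 not. Outside clusters the shares were 50.3% and 13.0%. The members in clusters had a median log2 fold change of -1.001 against -0.58 for the members outside clusters. The 3 called higher were the uaY-like ATCC64974_89820 and the nirA-like ATCC64974_25440 and ATCC64974_75470. The call for ATCC64974_25440 was lost when any of 4 libraries was left out. In cluster 47, ATCC64974_75470 rose from a mean of 5.70 to 10.3 CPM while its neighbour in the cluster, ATCC64974_75530, fell to 0.0259 CPM.

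In all, 3 members were closest to aflR, the regulator of aflatoxin and sterigmatocystin synthesis in other aspergilli. ATCC64974_69490 was called higher, from 10.7, 8.80 and 8.75 CPM to 19.2, 19.2 and 17.2 CPM (log2FC 0.98 ± 0.16 SE, adjusted p = 0.000854), and the other two were not called. In position, 23 of the 200 members tested (11.5%) lay within 20 kb of a backbone gene, against 6.04% of all genes tested. Backbone genes, of polyketide or nonribosomal peptide synthesis, were taken by Pfam domain alone, whether or not annotated in a cluster. The 68 backbone genes themselves counted as within 20 kb of one.

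The direction of a member's neighbours was close to that of genes at large. Among genes directly adjacent to a member called lower, 90 of 167 tested (53.9%) were also called lower, against 48.9% next to all genes called lower. Next to members called higher, 20 of 48 (41.7%) were called higher, against 47.6% over all genes. Members lay next to each other in 2 pairs. ATCC64974_39680 rose (log2FC 1.66) and ATCC64974_39690 beside it was lower (-1.04). In the other pair ATCC64974_94040 was not called (-0.02) and ATCC64974_94050 was called higher (0.46), a call lost when any of 5 libraries was left out. By the second domain of a member, lower calls were 54 of 100 tested with PF04082, 23 of 42 with PF11951 and 25 of 58 with neither.

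Members without a characterized relative were called at shares near that of the whole family. Of 35 tested members with no SwissProt match, 18 were called lower and 5 higher. Of 60 matched to an uncharacterized protein, 31 were called lower and 7 higher. All 3 genes closest to yeast YJL206C were called lower, and of the 17 closest to SPAC139.03, 9 were lower and 2 higher.

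Levels of different genes can be compared only per length, for which the authors' deposited table gives 1 FPKM value per strain with no replicates. By that table the highest members in MA234.1 were ATCC64974_95450 at 260.7 FPKM, ATCC64974_93520 at 232 FPKM, ATCC64974_88640 at 212 FPKM, ATCC64974_70510 at 206 FPKM and ATCC64974_34860 at 172 FPKM. In ΔaslA the authors' deposited table ranks ATCC64974_95450 first again at 255 FPKM, followed by ATCC64974_37260 at 129 FPKM and ATCC64974_34860 at 125 FPKM. So 3 of the 5 highest members of MA234.1 were replaced.

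ATCC64974_93520, closest to the uncharacterized fission yeast protein SPAC1327.01c, was among the highest in MA234.1 and not in ΔaslA. It stood at 488, 482 and 491 CPM in MA234.1, at 36.5, 29.2 and 34.2 CPM in ΔaslA, with 202, 430 and 28.3 CPM in ΔaslB (log2FC of ΔaslA -3.87 ± 0.11 SE, adjusted p = 3.81e-08). ATCC64974_95450, closest to FCR1, a Candida regulator of fluconazole resistance, was among the members with the smallest differences. It stood at 188, 219 and 211 CPM in MA234.1 and at 189, 226 and 192 CPM in ΔaslA (log2FC -0.03 ± 0.11 SE, adjusted p = 0.843). The ΔaslB libraries held 72.3, 221 and 151 CPM of it, with replicate 1 lowest. ATCC64974_37260, which has no match, was called higher by a small margin, from 240, 228 and 240 CPM to 288, 286 and 298 CPM, and its call was lost without MA234.1 replicate 2.

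In ΔaslB against MA234.1, edgeR called 0 members and 0% of all genes. At an unadjusted p under 0.05 it took 23 of 200 members, against 22.5% of all genes. The median log2 fold change of the members was -0.29. In the summed level, ΔaslB replicates 1 to 3 stood at 5644, 7904 and 4443 CPM, so that replicate 2 was near MA234.1, replicate 3 below ΔaslA and replicate 1 between them.

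The same order held gene by gene. Of the 128 members called between ΔaslA and MA234.1, ΔaslB replicate 1 was nearer to MA234.1 for 48 (37.5%, against 23.1% of all genes called), replicate 2 for 119 (93.0%, against 87.7%) and replicate 3 for 11 (8.59%, against 10.1%). For the 85 of these members that differed at least 2-fold, position was placed on a log2 scale running from 0 at the MA234.1 mean to 1 at the ΔaslA mean. The median position was 0.68 in replicate 1, 0.08 in replicate 2 and 0.97 in replicate 3. Over 4302 genes chosen the same way the medians were 0.84, 0.10 and 0.95. The quartiles of replicate 1 were wide, from 0.39 to 0.96.

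**Figure D5:**
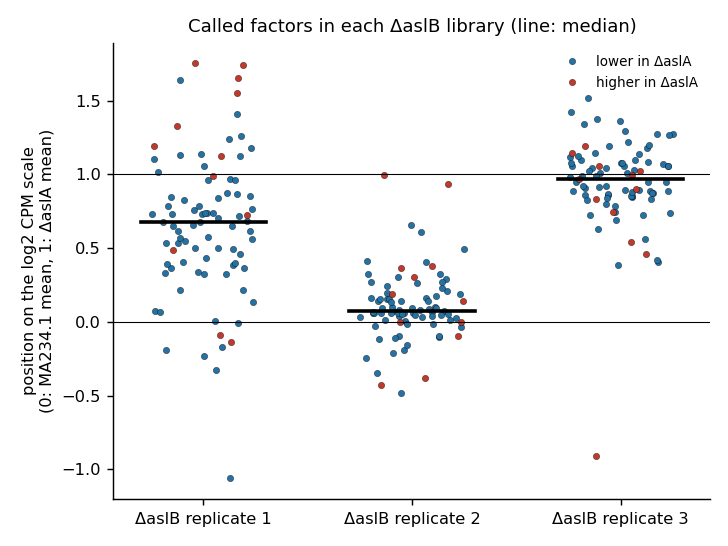
Position of each of the 85 members that were called and at least 2-fold different between ΔaslA and MA234.1, in each ΔaslB library, on a log2 CPM scale on which 0 is the MA234.1 mean and 1 the ΔaslA mean. Points are members, blue if lower and red if higher in ΔaslA, and thick lines are medians, which stand at 0.68, 0.08 and 0.97.

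Leaving out ΔaslB replicate 2 changed the outcome. Without it, 72 members were called lower and 12 higher against MA234.1, where 26.7% and 26.8% of all genes were, 53.5% in total. Of these members, 64 and 11 had been called in the same direction for ΔaslA, a comparison that shares the MA234.1 libraries. The same overlap was not counted over all genes, so whether it is particular to the family cannot be told. DESeq2 on all libraries called 4 members, against 11.0% of all genes. They were ATCC64974_41690, ATCC64974_58970 and ATCC64974_111140, which were lower, and ATCC64974_70070, which was higher.

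In ATCC64974_41690, a gene with no match, MA234.1 stood at 31.3, 32.4 and 35.1 CPM and ΔaslB at 13.8, 22.7 and 15.5 CPM. For ATCC64974_70070 the values were 6.51, 5.97 and 7.14 CPM in MA234.1 and 20.8, 8.98 and 17.8 CPM in ΔaslB. In both genes replicate 2 was the ΔaslB library nearest to MA234.1, yet no library of one strain overlapped the other. Such separation was found for 10 members that were higher and 55 that were lower in ΔaslB, against 14.0% and 22.8% of all genes, 36.8% in total.

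Replicate 1 of ΔaslB was at least 1.5 times above every other library for 9 members (4.5%), near the share of all genes (3.14%). For ΔaslA replicate 2 the shares were 1.5% of members and 5.34% of all genes. The 9 members high in ΔaslB replicate 1 were closest to araR, LEU3, ARG81, acr-2, AHR1, SPAC3C7.04, SPAC139.03 and, in a pair, nit-4. For ATCC64974_75920, closest to ARG81, the yeast regulator of arginine metabolism, replicate 1 held 13.5 CPM where the highest of the 8 other libraries held 7.46 CPM.

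Members in which all 3 ΔaslB libraries lay outside the 6 others were rare and weakly expressed. ATCC64974_111870, closest to acr-2, was highest in ΔaslB at 1.95, 2.37 and 1.75 CPM, above 1.74 CPM in the nearest other library. ATCC64974_30610, closest to UPC2, was lowest in ΔaslB at 1.59, 1.70 and 1.496 CPM, below 1.71 CPM in the nearest other library. Such patterns held for 0.136% of all genes above and 0.627% below. The gaps were narrow. Total counts alone changed both counts, and DESeq2 size factors changed the one below. A stricter filter changed both too, but it drops weakly expressed genes, so that change cannot show how wide the gaps were.

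In the direct comparison of ΔaslA with ΔaslB, edgeR again called 0 members and 0% of all genes. An unadjusted p under 0.05 was reached by 28 of 200 members, against 10.1% of all genes. The groups did not overlap for 23 members lower and 6 higher in ΔaslA, where 8.98% and 6.73% of all genes, 15.7% in total, were separated. Without ΔaslB replicate 3, edgeR called 4 members lower in ΔaslA, against 1.25% of all genes called lower. They were both steep adv-1-like genes, ATCC64974_82110 (log2FC -5.53 ± 0.50 SE, adjusted p = 0.0131) and ATCC64974_50020 (-5.15 ± 0.56 SE, adjusted p = 0.0195), with ATCC64974_22040 and ATCC64974_93520.

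DESeq2 on all libraries called the same 4 genes and ATCC64974_10700 and ATCC64974_92740, all lower in ΔaslA, against 2.80% of all genes. In ATCC64974_22040, closest to SPBC530.05, ΔaslB stood at 17.8, 34.0 and 1.83 CPM against 2.14, 2.27 and 1.40 CPM in ΔaslA, so that replicate 3 was near ΔaslA. The authors' deposited table called 8 members in this comparison, against 3.39% of all genes, and 0 in ΔaslB against MA234.1, against 3.79%.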

How the data were processed

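RNA-seq of 9 libraries was analysed. Per the submitters' processing notes, the reads were handled with featureCounts, Subread, Cuffdiff and HISAT2 2.2.1. What each did, the strand setting and the build are not given here, as no source used states them, so reads of overlapping genes on opposite strands may be mixed. Raw counts of reads per gene, for 11187 genes, were deposited for each library. The authors' deposited table gives 1 FPKM value per strain with replicates combined, log2 ratios of these values, q-values and the gene annotation.

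Differences were tested on the counts by quasi-likelihood in edgeR 4.0.16 under R 4.3.3. TMM scaling and the filter on low counts, which left 9568 genes, came from all 9 libraries. Each of the 3 comparisons was fitted on its own 6 libraries, because the ΔaslB libraries lay far apart and 1 fit of all 9 carries their spread into the other comparison. P-values were adjusted over all genes by the Benjamini-Hochberg method, with 0.05 as the threshold. CPM are TMM-scaled, and errors are SD over replicates or the SE of the fit. Replicate pairs differed by more than sampling noise (chi-square per degree of freedom 2.36 to 643), and all libraries were kept. Floors of 3 counts cover counting error only.

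On simulated counts in which 200 genes were changed before the filter on low counts, of which 200, 196 and 196 passed it, the share of 4-fold changes found was 84.6% with ΔaslA and MA234.1 (9457 genes), 18.5% with ΔaslB and MA234.1 (9450 genes) and 13.6% with both deletions (9446 genes). The share of 16-fold changes found was 99.1%, 86.4% and 84.9%. Unchanged genes called numbered 16, 3 and 2. Each library was drawn independently, gene by gene, around a mean shared by all libraries. The real ΔaslB libraries differed from each other over many genes together, which the simulation does not copy. The shares with ΔaslB therefore do not give the power of these data.

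Alternatives were DESeq2 1.42.0, its size factors within edgeR, scaling by totals alone, voom of limma 3.58.1, no filter, a filter of 50 counts in 3 libraries, the 9-library fit, a replicate block and each library left out. The members and role lists were chosen with earlier results of these data known. A member was placed on a role list when its symbol or a word of its description was among the symbols listed (for secondary metabolism, also when the description named a toxin, a biosynthesis or a gene cluster), so that related genes under other symbols are not on it. Named were the 10 largest rises and falls with non-overlapping replicates and at least 5 CPM in the higher strain, members on role lists (those not named are in the counts), the 5 highest per length in MA234.1 and ΔaslA, the 5 smallest changes, and members with ΔaslB outside the other libraries. Members named beyond this rule (ATCC64974_75530, ATCC64974_41690, ATCC64974_39690, ATCC64974_90260, ATCC64974_15650, ATCC64974_94040, ATCC64974_94050) were chosen after their values were seen. Sequences of the members were not used here. Figures were drawn with matplotlib 3.10.9.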

Additional observations from a re-analysis of the deposited data

How the results depend on the processing

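For ΔaslA against MA234.1, the members called lower stayed between 72 and 110 under every alternative run, and their median log2 fold change was below 0 in each. Members called higher fell from 26 to 11 in 1 fit of all 9 libraries, and with 1 library left out they ranged from 19 to 30. Of 110 named members tested, 97 had a value under all 14 alternatives, and 59 of these kept their direction and their side of the threshold in each. Of the 110, 71 did so in every alternative in which they were tested. A reversal was counted for 1 member, ATCC64974_39890, which was not called with all libraries. Its log2 fold change ranged from -0.37 without ΔaslA replicate 2 to 0.21 with another library left out. It was also slightly below 0 with limma-voom (-0.02), the stricter filter (-0.01) and the replicate block (-0.04). These were not counted as reversals, so members counted as keeping their direction may include sign changes close to 0. The cause was not tested.

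For ΔaslB against MA234.1, edgeR called 0 genes, while DESeq2 called 913 higher and 139 lower, among them 1 and 3 members. With 1 library left out, all genes called ranged from 0 to 2564 higher and from 0 to 2553 lower, and members from 0 to 12 and from 0 to 72. The highest of these came without ΔaslB replicate 2. For ΔaslA against ΔaslB, DESeq2 called 8 higher and 260 lower, with 0 and 6 members. With 1 library left out, calls ranged from 0 to 4 higher and from 0 to 120 lower, with up to 4 members lower, the most without ΔaslB replicate 3. Members with all ΔaslB libraries above the others numbered 3 with total counts alone and 0 with the stricter filter. Those below numbered 0 with DESeq2 size factors, with total counts alone and with the stricter filter. Limma-voom called 0 members in either ΔaslB comparison.

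Replicate numbers are shared between strains. Deviations of same-numbered libraries from their strain means correlated at -0.058 to 0.038, so no effect shared by a number was seen. Whether same-numbered cultures were grown or processed together cannot be told from these correlations. With the replicate block, 100 members were called lower and 23 higher in ΔaslA against MA234.1, and 0 in the other comparisons.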
